A study of Mus musculus with 6 samples.

Results

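The 10 genes described here belong to the response to the liver X receptors (LXRs) and to fatty acid synthesis: the receptors Nr1h2 and Nr1h3, the sterol efflux transporters Abca1 and Abcg1, Mylip, Srebf1, Scd1, Scd2, Fasn and Acaca. They were chosen by name, all 10 were found among the 36706 genes of the deposited tables, and all 10 passed the filter on low counts. Their mRNA was measured in wild-type (WT) mouse dendritic cells (BMDCs) grown from bone marrow with 20 ng/mL GM-CSF, with new medium on day 3 and day 5. There were 3 libraries of cells given IFN-γ and 4-octyl itaconate (IFN-γ+4-OI), against 3 libraries of cells given IFN-γ alone, so both groups carry IFN-γ. 4-OI is a cell-permeable derivative of itaconate, a metabolite that activated myeloid cells make. Cells without IFN-γ or with 4-OI alone were not analysed here, and neither the dose of each agent nor the time of exposure is in the labels. Titles name the cells BMDMs, while the other labels name dendritic cells, and no label says that replicates came from separate cultures, so a p-value covers only the spread among these samples and that spread may be technical.

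LXRs are nuclear receptors that bind oxysterols, oxidised derivatives of cholesterol, and pair with a retinoid X receptor on DNA. In macrophages and dendritic cells they are known for switching on cholesterol export through ABCA1 and ABCG1, and for switching on fatty acid synthesis through the transcription factor SREBP-1c, which Srebf1 encodes. Fatty acid synthesis also answers to SREBP directly: ACACA makes malonyl-CoA, FASN builds palmitate from it, and the SCD enzymes place a double bond in the product. Both arms can therefore share a receptor, and the 10 genes allow them to be set side by side in the same libraries.

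Libraries held 19656368 to 29244717 counts, at which 3 counts correspond to 0.102 to 0.163 CPM, a gene's counts relative to the total of its library, scaled by TMM factors. The lowest Spearman correlation of 2 libraries was 0.986 within a group, and the highest was 0.961 across groups. On the second principal component, IFN-γ+4-OI replicate 3 lay away from the other two of its group, and so did IFN-γ replicate 1 from IFN-γ replicates 2 and 3. Markers of conventional dendritic cells summed to 599 to 625 CPM with IFN-γ+4-OI, against 1033 to 1126 CPM with IFN-γ, and those of macrophages to 2712 to 2849 CPM, against 2142 to 2210 CPM. Markers of both cell types were thus present in every library. The tables place the members, on coordinates that differ from GRCm38 for most genes, at chromosome 7 from 44199040 to 44204928 (Nr1h2), chromosome 2 from 91014406 to 91033189 (Nr1h3), chromosome 4 from 53030789 to 53159988 (Abca1), chromosome 17 from 31276668 to 31336958 (Abcg1) and chromosome 13 from 45543197 to 45565498 (Mylip). Srebf1 is at chromosome 11 from 60089910 to 60113407, Fasn at 120696784 to 120715992 and Acaca at 84020461 to 84292477 of the same chromosome. Scd2 and Scd1 lie on chromosome 19, at 44282115 to 44295303 and 44382889 to 44396148. Counts cover each gene as a whole, and at most 2.32% of a member's exon bases (Srebf1, with Rai1) overlap a gene on the other strand.

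The lipogenic enzyme genes Scd1, Scd2 and Fasn fell with IFN-γ+4-OI, by 1.93-fold to 3.36-fold, and their regulator Srebf1 fell 1.32-fold, while Acaca did not pass the test. Neither sterol efflux gene passed, and the intervals of the fold were 0.737 to 1.33 for Abca1 and 0.764 to 1.04 for Abcg1. The receptor Nr1h3 fell 1.63-fold at a very low level. Of the 10 genes, 0 were called higher and 5 lower by edgeR's quasi-likelihood test at a Benjamini-Hochberg adjusted p of 0.05, where 22.7% of the 14011 genes tested were called higher and 25.4% lower (48.1% in either direction). At an adjusted p of 0.01, 4 were called lower (Srebf1, Scd1, Scd2 and Fasn) and 0 higher, where 14.8% of all genes were called higher and 17.7% lower (32.6% in all). Groups did not overlap for 6 of the 10 (Nr1h3, Mylip, Srebf1, Scd1, Scd2 and Fasn), against 59.5% of all genes tested. Both shares, taken in either direction, are close to those of all genes, and nothing is read from the counts. The median log2 fold change was -0.30 over the 10 genes and -0.01 over all genes tested.

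**Figure D1:**
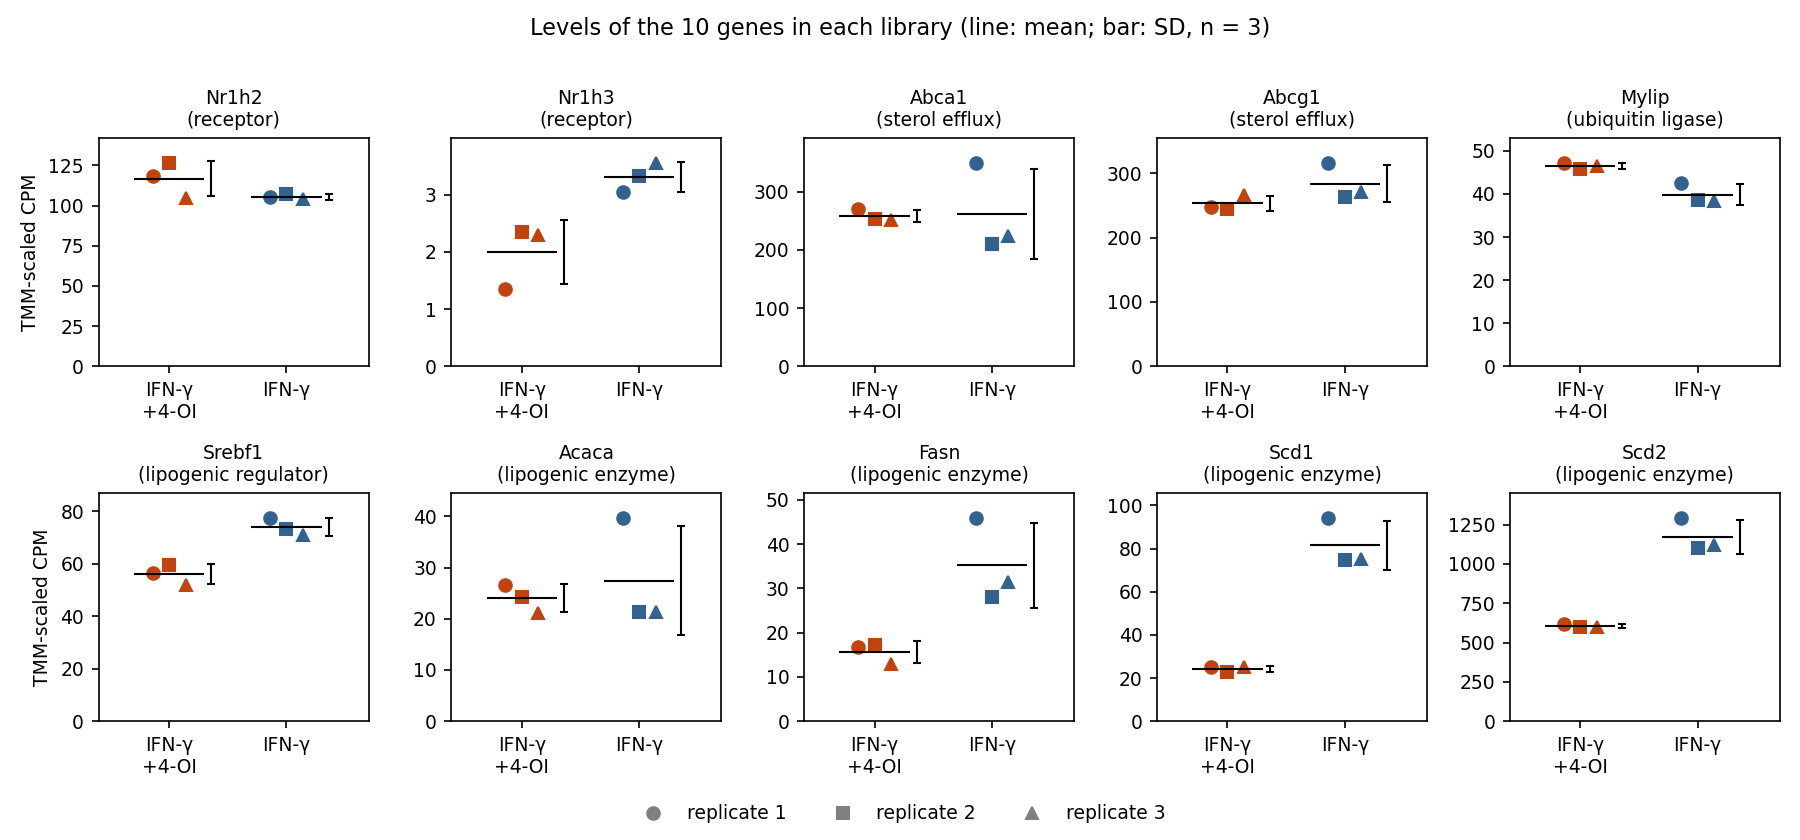
Level of each of the 10 genes in CPM (vertical axes, from 0, different for each gene) in each library, IFN-γ+4-OI left of IFN-γ; points are libraries, horizontal lines means and the bars beside them the SD (n = 3). For Scd1, Scd2, Fasn and Srebf1 all IFN-γ+4-OI libraries lie below all IFN-γ libraries, while for Abca1, Abcg1, Acaca and Nr1h2 the groups overlap.

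A sequence shared by both arms stands in the promoters below, printed to show the letters that the efflux gene Abca1 and the lipogenic genes Fasn and Srebf1 have in common. Each is the 250 bases before a listed RefSeq start site on GRCm38.p6, written 5′ to 3′ on the gene's strand, which is the minus strand for all 3. Abca1 covers chr4:53159896-53160145, Fasn covers chr11:120824548-120824797, and Srebf1 covers chr11:60210472-60210721, upstream of the most downstream of its 3 listed start sites. Capitals mark matches to a relaxed form of the direct repeat that LXRs bind, which is NGGTNA repeated in the same direction with 4 bases between, and to CCAAT, the box bound by NF-Y; both strands were searched. The repeat was matched on the strand opposite to the gene in all 3, so its capitals read as the reverse complement, as does ATTGG for CCAAT.
Abca1: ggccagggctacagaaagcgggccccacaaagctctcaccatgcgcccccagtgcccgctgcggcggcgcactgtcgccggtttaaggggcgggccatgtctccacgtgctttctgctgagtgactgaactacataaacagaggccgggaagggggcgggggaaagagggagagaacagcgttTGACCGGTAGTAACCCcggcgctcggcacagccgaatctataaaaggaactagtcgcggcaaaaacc
Fasn: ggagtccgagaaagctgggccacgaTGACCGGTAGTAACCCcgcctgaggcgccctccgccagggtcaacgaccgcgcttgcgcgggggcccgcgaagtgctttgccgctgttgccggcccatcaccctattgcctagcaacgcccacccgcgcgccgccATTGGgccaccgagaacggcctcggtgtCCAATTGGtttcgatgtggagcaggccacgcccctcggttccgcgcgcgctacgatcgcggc
Srebf1: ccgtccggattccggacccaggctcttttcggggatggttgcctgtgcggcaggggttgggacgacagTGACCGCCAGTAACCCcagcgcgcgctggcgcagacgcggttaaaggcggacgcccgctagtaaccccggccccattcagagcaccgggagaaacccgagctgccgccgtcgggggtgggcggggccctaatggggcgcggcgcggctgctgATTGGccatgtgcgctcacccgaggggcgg

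The match is the same 16 letters, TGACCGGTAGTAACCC, in Abca1 and in Fasn, and these letters were in the window of no other gene among the 27025 with a listed promoter. In Abca1 they begin at position -67 from the start site and in Fasn at -225. Srebf1 holds TGACCGCCAGTAACCC at -182, which differs from them at 2 letters. The relaxed pattern was written with known LXR elements in mind, and known LXR targets are among the members. It matched 3 of the 7 members with a RefSeq promoter, against 0.707% of all genes. Such matches could be fixed in advance, so nothing is read from this count. The strict repeat, AGGTCA at the same spacing, was in 0 of the 7 and in 0.0148% of genes. CCAAT was in Fasn, Srebf1 and Mylip, and in 37.5% of all genes. A classical sterol regulatory element, the kind of site SREBP binds, was in 0 of the 7 windows and in 0.0814% of genes. Abcg1, Scd1 and Scd2 were not among the listed promoters. A match describes letters in a window and does not show that a receptor was bound.

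Among the receptors, Nr1h2 encodes LXRβ, the broadly expressed form. It had 118, 127 and 105 CPM in IFN-γ+4-OI replicates 1, 2 and 3, against 105, 107 and 104 CPM in IFN-γ replicates 1, 2 and 3. Groups overlapped, with a mean of 117 ± 11.0 CPM with IFN-γ+4-OI and 105 ± 1.74 CPM with IFN-γ (SD, n = 3 each here and below). The log2 fold change was 0.15 ± 0.09 (SE) with a 95% interval of -0.06 to 0.35, and the gene did not pass (edgeR adjusted p = 0.213); scaling by total counts alone gave -0.11.

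Nr1h3 encodes LXRα, the form prominent in liver, adipose tissue and macrophages. It had 1.36, 2.35 and 2.30 CPM with IFN-γ+4-OI, against 3.04, 3.32 and 3.56 CPM with IFN-γ, from 25, 65 and 56 counts with IFN-γ+4-OI, against 77, 98 and 84 counts with IFN-γ. Each IFN-γ+4-OI library lay below each IFN-γ library. The log2 fold change of -0.70 ± 0.22, a 1.63-fold lower level, passed (edgeR adjusted p = 0.0296). It did not pass without IFN-γ+4-OI replicate 1 (-0.50, edgeR adjusted p = 0.0641), IFN-γ replicate 2 (-0.69, edgeR adjusted p = 0.0682) or IFN-γ replicate 3 (-0.64, edgeR adjusted p = 0.0891), although in the last pair of fits the size was close to that with all libraries. Per length, Nr1h2 exceeded Nr1h3 52.7, 32.5 and 27.5-fold in IFN-γ+4-OI libraries, against 20.8, 19.5 and 17.6-fold in IFN-γ libraries, as ratios of the deposited TPM. The share of LXR transcript that comes from Nr1h3 was thus lower in each IFN-γ+4-OI library.

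ABCA1 passes cholesterol and phospholipid to lipid-poor apolipoprotein A-I, and ABCG1 passes cholesterol to HDL particles. Abca1 had 270.0, 253 and 252 CPM in IFN-γ+4-OI replicates 1, 2 and 3, against 349.6, 209 and 224 CPM in IFN-γ replicates 1, 2 and 3. The 3 IFN-γ+4-OI libraries lay close together, between IFN-γ replicate 1, which was the highest of the 6, and IFN-γ replicates 2 and 3, which were the lowest. The log2 fold change was -0.01 ± 0.18 with a 95% interval of -0.44 to 0.41, and it did not pass (edgeR adjusted p = 0.956). Without IFN-γ replicate 1 it was 0.25, past the threshold and in the opposite direction (edgeR adjusted p = 0.0134).

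Abcg1 had 248, 244 and 267 CPM with IFN-γ+4-OI, against 316, 263 and 271 CPM with IFN-γ. IFN-γ replicates 1 and 3 were the highest libraries, while IFN-γ replicate 2 lay among those of IFN-γ+4-OI, so the groups overlapped. Its log2 fold change of -0.16 ± 0.10 (95% interval -0.39 to 0.06) did not pass (edgeR adjusted p = 0.199). With scaling by total counts alone, which moves the median of all genes to -0.27, Abcg1 was called lower (-0.43, edgeR adjusted p = 0.00909). Under that scaling 0 of the 10 genes were called higher and 6 lower, where 12.3% of all genes were called higher and 38.9% lower (51.1% in all).

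Mylip encodes IDOL, an LXR-induced ubiquitin ligase that lowers the uptake of cholesterol. It had 47.3, 45.8 and 46.5 CPM with IFN-γ+4-OI, against 42.7, 38.6 and 38.3 CPM with IFN-γ. Groups did not overlap, and the level was 1.17-fold with a 95% interval of 1.02 to 1.33, which missed the threshold (log2 0.22 ± 0.08, edgeR adjusted p = 0.0533). It passed as higher without IFN-γ replicate 1 (0.27, edgeR adjusted p = 0.00645) and with scaling by RLE factors (0.23, edgeR adjusted p = 0.0417). It also passed with DESeq2 (adjusted p = 0.0381), which called 47.0% of all genes (22.5% higher and 24.5% lower). Scaling by total counts turned the log2 value to -0.04.

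Srebf1 encodes SREBP-1, the transcription factor that drives the lipogenic enzymes. It had 56.6, 59.7 and 52.1 CPM in IFN-γ+4-OI replicates 1, 2 and 3, against 77.7, 73.3 and 71.1 CPM in IFN-γ replicates 1, 2 and 3. Each IFN-γ+4-OI library was below each IFN-γ library. The mean was 56.1 ± 3.84 CPM with IFN-γ+4-OI and 74.0 ± 3.38 CPM with IFN-γ, a log2 fold change of -0.40 ± 0.09 that passed (edgeR adjusted p = 0.00634).

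Scd1 and Scd2 encode stearoyl-CoA desaturases, which turn saturated into monounsaturated fatty acids. Scd1 had 25.1, 22.6 and 25.1 CPM with IFN-γ+4-OI, against 94.4, 74.7 and 75.3 CPM with IFN-γ. The 3 IFN-γ+4-OI libraries were nearly equal and all far below the IFN-γ libraries. Its log2 fold change was -1.75 ± 0.12, a 3.36-fold lower level (edgeR adjusted p = 1.69e-05).

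Scd2 had 619.6, 599 and 598 CPM with IFN-γ+4-OI, against 1295, 1098 and 1119.9 CPM with IFN-γ, and had the highest TPM of the 10 genes in each library. The level was 1.93-fold lower with IFN-γ+4-OI (log2 -0.95 ± 0.10, edgeR adjusted p = 1.40e-04). Per length, Scd2 exceeded Scd1 21.9, 23.5 and 21.2-fold with IFN-γ+4-OI, against 12.2 to 13.2-fold with IFN-γ. Scd1 therefore stood lower relative to Scd2 in each IFN-γ+4-OI library. Some reads may be shared between copies: 4.56% of 50-base words in Scd1 transcripts were also in another gene, mostly Scd3, and 3.97% of those in Scd2, mostly Scd1.

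Fasn encodes fatty acid synthase. It had 16.9, 17.1 and 12.8 CPM with IFN-γ+4-OI, against 46.0, 28.1 and 31.5 CPM with IFN-γ. Groups did not overlap, although IFN-γ replicate 1 exceeded IFN-γ replicates 2 and 3. The level was 2.25-fold lower (log2 -1.17 ± 0.20, 95% interval -1.64 to -0.71, edgeR adjusted p = 0.00197). With IFN-γ replicate 1 left out it was still called, at -0.94. Without IFN-γ replicate 1 and IFN-γ+4-OI replicate 3 together the fall was smaller, at -0.80.

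Acaca encodes acetyl-CoA carboxylase 1, the enzyme ahead of FASN. It had 26.6, 24.3 and 21.2 CPM with IFN-γ+4-OI, against 39.8, 21.4 and 21.3 CPM with IFN-γ. IFN-γ replicate 1 was far above all others, while IFN-γ replicates 2 and 3 lay among those of IFN-γ+4-OI. The log2 fold change of -0.19 ± 0.24 (95% interval -0.76 to 0.37) did not pass (edgeR adjusted p = 0.544). With IFN-γ replicate 1 left out it was 0.16 (edgeR adjusted p = 0.212). Of its 50-base words 30.4% were also in another gene, mostly the pseudogene Gm5182, so its counts are uncertain where reads could be placed on both. As ratios of TPM, Acaca stood at 1.54, 1.39 and 1.61 times Fasn with IFN-γ+4-OI, against 0.845, 0.744 and 0.659 times with IFN-γ. Acaca was thus above Fasn per length in every IFN-γ+4-OI library and below it in every IFN-γ library.

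**Figure D2:**
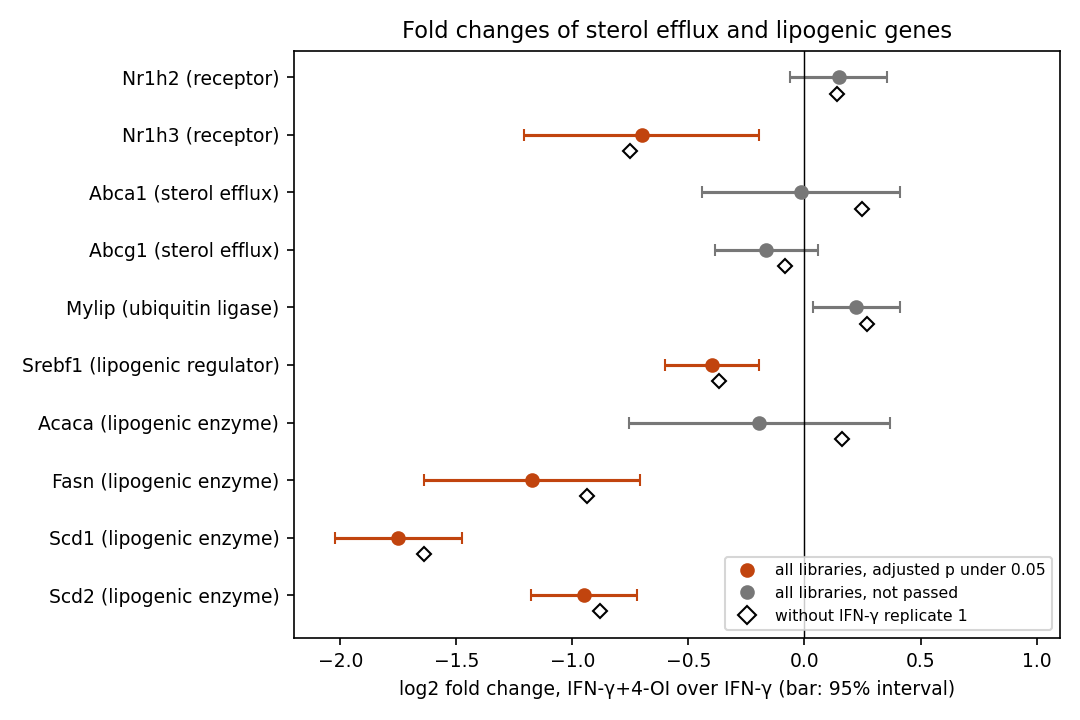
Log2 fold change of the 10 genes, IFN-γ+4-OI over IFN-γ (horizontal axis), with 95% intervals from the fit of all 6 libraries (circles, filled orange where the adjusted p was under 0.05), and without IFN-γ replicate 1 (diamonds). Nr1h3, Srebf1, Fasn, Scd1 and Scd2 lie below 0 in both fits, and Abca1 and Acaca change sign between them.

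The sterol efflux and lipogenic enzyme genes were set side by side within each library, as the mean log2 CPM of Abca1 and Abcg1 minus that of Scd1, Scd2, Fasn and Acaca. The difference was 2.33, 2.35 and 2.52 with IFN-γ+4-OI, against 1.44, 1.48 and 1.51 with IFN-γ. Each IFN-γ+4-OI library was above each IFN-γ library, and the means were 2.40 ± 0.107 with IFN-γ+4-OI and 1.48 ± 0.0323 with IFN-γ (SD, n = 3 each). The mean log2 fold change of the efflux genes exceeded that of the lipogenic enzymes by 0.93, and by 0.87 to 0.96 when any 1 library was left out. The median log2 fold change was -0.09 for the 2 efflux genes and -1.06 for the 4 enzymes. The enzymes were not alike: Acaca, at -0.19, lay near the efflux gene Abcg1, at -0.16. Scd2 was at -0.95, Fasn at -1.17 and Scd1 at -1.75, so the gap came from these genes. Abca1 and Fasn, which share the 16 letters printed above, differed by 3.99, 3.88 and 4.29 on the log2 CPM scale with IFN-γ+4-OI, against 2.92, 2.89 and 2.83 with IFN-γ. Since the genes were chosen with earlier results known, these are descriptions with no test.

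Per length, the 4 highest genes and the lowest were the same in both groups. The TPM carry no TMM factor, so they set genes side by side within a group and give no change between groups. A library's 10 most counted genes held 15.1 to 16.9% of its counts with IFN-γ+4-OI, against 7.37 to 8.59% with IFN-γ. Nr1h2 and Mylip have lower mean TPM with IFN-γ+4-OI, although their fitted log2 fold changes were 0.15 and 0.22. As deposited TPM, a unit scaled to gene length, the means with IFN-γ+4-OI were 197 ± 19.8 for Scd2, 76.8 ± 3.51 for Abcg1, 56.8 ± 9.96 for Nr1h2 and 43.9 ± 5.04 for Abca1. Below these came Mylip at 21.9 ± 2.01, Srebf1 at 20.4 ± 3.08, Scd1 at 8.86 ± 0.715, Acaca at 4.01 ± 0.771, Fasn at 2.68 ± 0.625 and Nr1h3 at 1.60 ± 0.425 TPM. The ranges of mean ± SD overlapped for Nr1h2 and Abca1, Mylip and Srebf1, and Acaca and Fasn. These SD are between libraries: within each IFN-γ+4-OI library Nr1h2 was above Abca1 and Acaca above Fasn. Mylip and Srebf1 changed order between libraries. With IFN-γ the order was Scd2 at 501 ± 106, Abcg1 at 114 ± 25.3, Nr1h2 at 66.7 ± 7.54, Abca1 at 59.2 ± 24.9, Scd1 at 39.4 ± 10.2, Srebf1 at 35.0 ± 5.63, Mylip at 24.6 ± 4.43, Fasn at 7.98 ± 3.15, Acaca at 6.13 ± 3.15 and Nr1h3 at 3.46 ± 0.225 TPM. There the ranges of mean ± SD overlapped for Nr1h2 and Abca1, Abca1 and Scd1, Scd1 and Srebf1, Fasn and Acaca, and Acaca and Nr1h3. Within each IFN-γ library, however, Abca1 was above Scd1, Scd1 above Srebf1, Fasn above Acaca and Acaca above Nr1h3. Of these pairs only Nr1h2 and Abca1 changed order between libraries.

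IFN-γ replicate 1 read long genes higher than replicates 2 and 3 of its group. Over all genes tested, its log2 CPM minus the mean of the other two had a median of -0.33 for the 3237 genes under 2 kb and 0.46 for the 1270 genes of at least 10 kb. The members with exons of more than 10 kb in all deviated most: Acaca by 0.90, Abca1 by 0.69 and Fasn by 0.63, while Scd1 deviated by 0.33, Scd2 by 0.22, Srebf1 by 0.11 and Nr1h3 by -0.17. IFN-γ+4-OI replicate 3 differed from replicates 1 and 2 of its group in the opposite direction and by less. Its medians were 0.17 for genes under 2 kb and -0.08 for those of at least 10 kb. In that library Fasn deviated by -0.40, Acaca by -0.26 and Abca1 by -0.05. Without IFN-γ replicate 1, 2 of the 10 genes were called higher (Abca1 and Mylip) and 5 lower, where 26.4% of all genes were called higher and 28.2% lower (54.7% in all). Without IFN-γ replicate 1 and IFN-γ+4-OI replicate 3 together, 4 were called higher (Abca1, Mylip, Nr1h2 and Acaca) and 6 lower (Abcg1 beside the 5), where 32.7% of all genes were called higher and 33.3% lower (66.0% in all). The part of these length patterns in the 3 long members' results was not tested beyond the fits that leave out these libraries.

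**Figure D3:**
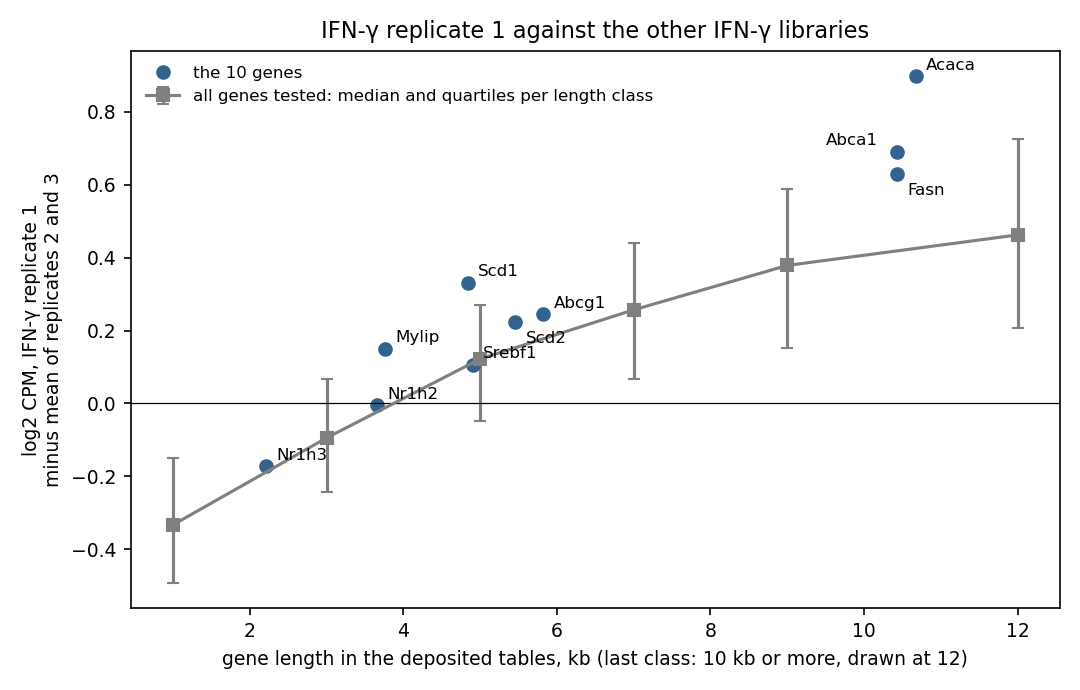
Log2 CPM of IFN-γ replicate 1 minus the mean of IFN-γ replicates 2 and 3 (vertical axis) by gene length; squares with bars give the median and quartiles of all genes tested per length class, and points are the 10 genes. Acaca, Abca1 and Fasn, all over 10 kb, lie highest among the 10, at 0.90, 0.69 and 0.63.

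Other genes of these pathways were taken from lists assembled with earlier results of these data known. Of 14 further LXR targets 11 reached the level of the filter in every library. Of these 5 were higher and 2 lower, with a median log2 fold change of 0.47, where 22.7% of all genes were called higher and 25.4% lower. With total-count scaling the list's calls were 4 higher and 4 lower, where 12.3% of all genes were called higher and 38.9% lower. Higher were Smpdl3a, an LXR-induced phosphodiesterase, at 131 ± 9.71 CPM with IFN-γ+4-OI and 61.8 ± 4.79 CPM with IFN-γ (log2 1.08, edgeR adjusted p = 6.05e-05), and Arl4c, a small GTPase, at 427 ± 16.1 CPM with IFN-γ+4-OI and 259.6 ± 14.2 CPM with IFN-γ (log2 0.72, edgeR adjusted p = 2.59e-04). Lower was Abcg4, a sterol transporter related to ABCG1, at 3.66 ± 1.01 CPM with IFN-γ+4-OI and 12.6 ± 1.52 CPM with IFN-γ (log2 -1.79, edgeR adjusted p = 2.27e-04). Of the other calls, chosen after their values were seen, Lpcat3, a phospholipid acyltransferase, was 1.54-fold, Npc1, which carries cholesterol out of lysosomes, 1.77-fold and Scarb1, the HDL receptor, 1.39-fold higher, while Pltp, a phospholipid transfer protein, was 1.29-fold lower. Scarb1 did not pass with total-count scaling, nor Pltp without IFN-γ+4-OI replicate 1 (-0.33) or 3 (-0.32). Apoe, the apolipoprotein that accepts exported cholesterol, had 7.81, 22.1 and 28.6 CPM with IFN-γ+4-OI, against 5.57, 21.2 and 7.93 CPM with IFN-γ. Its libraries varied widely within both groups and it did not pass (log2 0.75, edgeR adjusted p = 0.305); without IFN-γ replicate 2 it was called higher (1.55, edgeR adjusted p = 0.0327).

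Among 22 further fatty acid synthesis genes 16 reached the level of the filter in every library. Of these 5 were higher and 4 lower, with a median of -0.06, where 22.7% of all genes were called higher and 25.4% lower. The whole list, with Elovl3 and Scd3 described last, had 3 higher and 9 lower calls with total-count scaling, against 6 and 5 with TMM factors. Total-count scaling called 12.3% of all genes higher and 38.9% lower. Me1, malic enzyme, which supplies NADPH for synthesis, had 24.8, 25.8 and 31.1 CPM with IFN-γ+4-OI, against 3.00, 2.27 and 3.22 CPM with IFN-γ. All IFN-γ+4-OI libraries were above all IFN-γ libraries (9.66-fold higher, edgeR adjusted p = 3.87e-06). Acss2, which makes cytosolic acetyl-CoA from acetate, had 56.3, 54.2 and 50.9 CPM with IFN-γ+4-OI, against 9.96, 9.16 and 9.88 CPM with IFN-γ and was likewise separate (5.56-fold higher, edgeR adjusted p = 1.96e-06). Acly, which makes acetyl-CoA from citrate, averaged 172 ± 6.47 CPM with IFN-γ+4-OI and 221 ± 28.8 CPM with IFN-γ and was 1.28-fold lower (edgeR adjusted p = 0.0235), a call lost without any 1 of the IFN-γ+4-OI libraries (-0.32 to -0.37). Of the elongases, Elovl5 was 1.52-fold lower (edgeR adjusted p = 2.58e-04) and Elovl6 1.85-fold lower (edgeR adjusted p = 9.15e-04). Me1, Acss2 and Acly all supply acetyl-CoA or NADPH, and they moved in different directions. The other calls, like Elovl6 chosen after their values were seen, were the following. Hsd17b12, a reductase of chain elongation, was 1.34-fold, Fads1, a desaturase of polyunsaturated fatty acids, 1.35-fold and Mid1ip1, a cofactor of acetyl-CoA carboxylase, 1.34-fold higher, and these 3 did not pass with total-count scaling. Mid1ip1 also did not pass without IFN-γ+4-OI replicate 2 (0.43) or 3 (0.37). Fads2, a further desaturase, was 1.23-fold lower, and did not pass without IFN-γ+4-OI replicate 1 or 2 or IFN-γ replicate 2 or 3 (-0.26 to -0.29). Elovl3, an elongase, had 16, 25 and 17 counts with IFN-γ+4-OI, against 3, 0 and 1 counts with IFN-γ, and Scd3, a further desaturase gene beside Scd1 and Scd2, had 3, 2 and 5 counts with IFN-γ+4-OI, against 23, 14 and 15 counts with IFN-γ; each passed the filter only through the group in which it is high, so no call is read from it.

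Of 14 LXR partners and oxysterol enzymes 10 reached the level of the filter in every library. Of these 1 was higher and 1 lower, where 22.7% of all genes were called higher and 25.4% lower. Ch25h makes 25-hydroxycholesterol, an oxysterol. It had 7, 11 and 7 counts with IFN-γ+4-OI, against 105, 119 and 89 counts with IFN-γ. Every IFN-γ+4-OI library was below every IFN-γ library, but the gene passed the filter only through the IFN-γ group, so no call is read from it. Ncoa3, a receptor coactivator, was lower (log2 -0.55, edgeR adjusted p = 0.0411), but not without any 1 of the IFN-γ+4-OI libraries (-0.46 to -0.63), and it was at -0.31 without IFN-γ replicate 1. Hsd3b7, an enzyme of bile acid synthesis from oxysterols, was 1.73-fold higher (edgeR adjusted p = 5.06e-04). Of 9 genes of SREBP control and related functions 8 were tested, of which 1 was higher and 2 lower, against those same shares of all genes. Without IFN-γ replicate 1 there were 5 calls, where 54.7% of all genes were called. Vldlr, the receptor for very low density lipoprotein, averaged 7.73 ± 1.30 CPM with IFN-γ+4-OI and 13.8 ± 1.62 CPM with IFN-γ (log2 -0.84, edgeR adjusted p = 0.00225). Srebf2, named after its values were seen, is the paralogue of Srebf1 that drives cholesterol synthesis, and it averaged 129.6 ± 16.8 CPM with IFN-γ+4-OI and 174 ± 14.2 CPM with IFN-γ (log2 -0.43, edgeR adjusted p = 0.0169). Insig1, which retains SREBP in the endoplasmic reticulum and is itself an SREBP target, did not pass at 59.0 ± 3.72 CPM with IFN-γ+4-OI and 51.4 ± 4.27 CPM with IFN-γ (log2 0.20, edgeR adjusted p = 0.123), and Insig2 was 1.28-fold higher (edgeR adjusted p = 0.00907), though not past the threshold with total-count scaling.

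**Figure D4:**
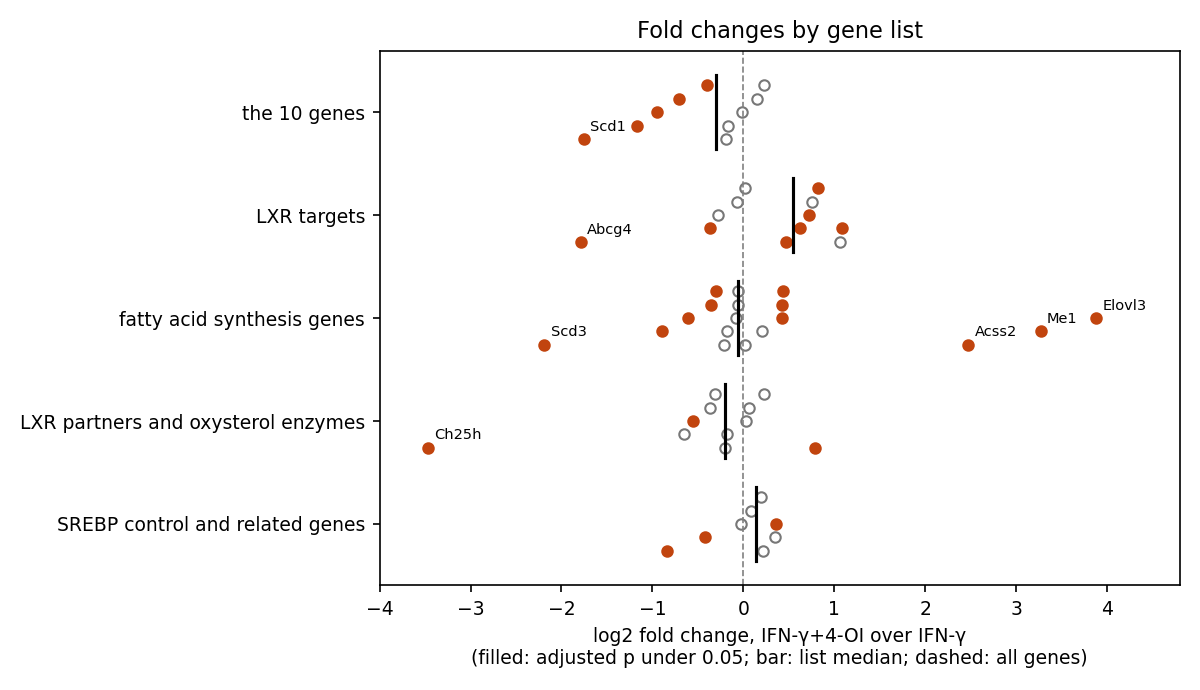
Log2 fold change, IFN-γ+4-OI over IFN-γ (horizontal axis), of each tested gene by list; filled points passed the adjusted p, the bar is the median of each list and the dashed line the median of all genes tested. The median of the 10 genes was -0.30; Elovl3, Scd3 and Ch25h, at the far ends, passed the filter only through the group in which they are high.

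In bulk libraries fewer cells of a type and less RNA per cell cannot be told apart. Beside the lower lipogenic genes, monocyte markers summed to 944 to 1050 CPM with IFN-γ+4-OI, against 1867 to 2425 CPM with IFN-γ (5 of 7 lower and 0 higher). Neutrophil markers summed to 1511 to 2192 CPM with IFN-γ+4-OI, against 1004 to 1649 CPM with IFN-γ (2 of 6 higher and 3 lower). Of 10 macrophage markers, whose sums are given above, 2 were higher and 2 lower. Over all genes tested, 22.7% were called higher and 25.4% lower. Mast cell and basophil markers summed to 103 to 111 CPM with IFN-γ+4-OI, against 341 to 371 CPM with IFN-γ. Of these 7 markers, Cpa3, Kit, Mcpt8, Gata2 and Hdc were called lower, and Fcer1a was not tested. The remaining marker, Ms4a2, had 5, 16 and 17 counts with IFN-γ+4-OI, against 102, 119 and 86 counts with IFN-γ. Ms4a2 passed the filter only through the IFN-γ group, so no call is read from it. Of 10 conventional dendritic cell markers 9 were tested, of which 7 were lower and 1, Clec9a, was 3.73-fold higher (edgeR adjusted p = 7.88e-06), where 25.4% of all genes were called lower and 22.7% higher; Cd209a had at most 3 counts in every library. Their part in the results was not tested. Adipocytes are rich in these enzymes, and of their markers 5 of 6 (Adipoq, Lep, Plin1, Cidec and Cfd) had at most 3 counts in every library. The other, Fabp4, had 113, 149 and 141 counts with IFN-γ+4-OI, against 99, 190 and 131 counts with IFN-γ. It did not pass (log2 0.11, edgeR adjusted p = 0.637) and made up most of the sums, which were 5.39 to 6.18 CPM, against 3.99 to 6.51 CPM.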

How the data were processed

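Libraries were made with a kit that keeps the strand of mRNA, per the labels' protocols. HISAT2 and mm10 are named in the submitters' processing notes. How reads were counted, with or without strand, and on which annotation is not given in the sources used. The authors deposited, per the file headers, whole-number counts, TPM and FPKM per gene. Counts were tested, TPM was used only to set genes side by side per length, and FPKM was not used. Of 35271 genes matched by symbol, 827 shared a start or an end with RefSeq's GRCm38 table, so the deposited coordinates may be of another assembly than the notes name.

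Libraries were grouped by their titles. The filter was filterByExpr with a minimum count of 10, and libraries were scaled by TMM factors, in edgeR 4.0.16 (R 4.3.3). Groups were compared by the robust quasi-likelihood test over 14011 genes, with Benjamini-Hochberg adjustment at 0.05. Levels are TMM-scaled CPM, or log2 CPM with a prior count of 2. Floors of 3 counts cover counting error only. No replicates agreed within sampling noise (lowest chi-square per gene 4.29). The test was tried on simulated counts. Alternatives were RLE, upper quartile and total-count scaling, no filter, at least 1 CPM in 3 libraries, limma-voom (limma 3.58.1), DESeq2 1.42.0, a replicate block, an adjusted p of 0.01 for the counts of changed genes and members and leaving out each library. Leaving out IFN-γ replicate 1 and IFN-γ+4-OI replicate 3 together was added after the data had been seen.

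Members, lists and tests were chosen with earlier results of these data known. Genes named are the 10 members, the 3 of each pathway list with the smallest adjusted p, and Apoe, Insig1 and Acly; others are named as chosen after their values were seen. A result of 1 gene under this rule is not reported here, and its list was summarised without it. Promoters are RefSeq's for GRCm38.p6, matched by symbol for 7 of 10 members; shared 50-base words were counted in GENCODE transcripts.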

Additional observations from a re-analysis of the deposited data

How the results depend on the processing

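Scd1, Scd2, Fasn and Srebf1 were called lower under all 15 alternatives run for them, and the count of changed genes was 5275 to 7835 when 1 library was left out, against 6736. Leaving out 1 library gave 4 to 7 called members, 6 to 9 LXR targets, 8 to 13 fatty acid synthesis genes, 2 to 5 LXR partners and oxysterol enzymes and 3 to 5 genes of SREBP control, with Elovl3, Scd3 and Ch25h counted where they passed the filter. Abca1 ranged from -0.14 to 0.25 (log2) in these fits, and only without IFN-γ replicate 1 was it called. Without that library and IFN-γ+4-OI replicate 3 together, called were 10 members, 17 fatty acid synthesis genes, 5 LXR partners and 7 genes of SREBP control. In that fit 66.0% of all genes were called. Abca1 was then at 0.27 and Acaca at 0.25 on the log2 scale, and the efflux genes exceeded the lipogenic enzymes by 0.85. Total-count scaling called 6 LXR partners, with 12.3% of all genes higher and 38.9% lower. The cause was not tested. Whether replicate numbers pair the libraries was not settled. Same-numbered deviations correlated at 0.26, -0.10 and 0.19, and differently numbered ones at -0.34 to 0.31. With the replicate block 7513 genes were called. Nr1h3, at 25 to 98 counts per library, had the fewest counts of the 10 members.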
